A study of Mus musculus with 6 samples.

Results

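The comparison described here sets 1 single-cell RNA library of mouse retinal cultures that received a miR-25 mimic, a synthetic double-stranded RNA that acts as miR-25, against 1 library that received control RNAs (a control mimic together with a control antagomiR). The libraries were chosen by their treatment labels, and cells with at least 500 detected genes and at most 10% of UMIs (unique RNA molecules counted) from mitochondrial genes were kept. That left 9689 cells, 4521 with control RNAs and 5168 with miR-25 mimic, of 23258 cells kept over the 6 libraries of the study. Mouse retinas were dissociated with papain, and the cells were grown with serum, N2, L-glutamine and EGF and then transfected with a Lipofectamine reagent at 500 nM of each RNA. Of the other 4 libraries, 1 received an antagomiR against let-7, which blocks that miRNA family, and 1 a miR-124 mimic. Another received both the antagomiR and the miR-25 mimic, called the double combination here, and the last received all 3 RNAs, the triple combination. None of the sources used here gives the strain, the age of the animals or the time after transfection.

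There was 1 library per treatment, so no difference below has a replicate check, no test was made, and treatment, culture and library preparation cannot be told apart. The control matrix held 23124374 UMIs and the miR-25 matrix 21561243, with medians of 4481 and 3848 UMIs per kept cell. Among the barcodes, 353 of the control and 97 of the miR-25 library exceeded the mitochondrial limit, and 1 and 8 had too few genes. The kept cells of the 2 libraries share 30 barcode sequences, and each pair of the 6 libraries shares 9 to 30. The cells are labelled Müller glia, but markers of several other cell types marked whole clusters, so classes are called "-like" by their markers and the label was not taken for every cell. Intervals in parentheses are exact 95% intervals and cover counting error only.

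Müller glia are the radial glia of the retina. They support neurons and recycle neurotransmitter, and in fish, though scarcely in mammals, they return to the cell cycle and make new neurons after injury. MicroRNAs are short RNAs that guide Argonaute proteins to messenger RNAs, mostly to sites in the 3′ untranslated region (UTR) that pair with the seed, bases 2 to 8 of the miRNA. Such pairing lowers the level and the translation of the message. The miR-25 family includes miR-92 and is abundant in dividing and progenitor cells, and the miR-25 gene lies within Mcm7, a gene of the replicative helicase.

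The labels do not state the arm of the mimic, and the 3p arm, the usual mature form, was taken here. Members of the family share the seed, shown in capitals, so the sites counted below are sites for all of them. The sequences and the GRCm38.p6 positions are from RefSeq. The hairpin of miR-25 lies at chr5:138165321-138165404 on the minus strand, within Mcm7 (chr5:138164583-138172111).
mmu-miR-25-3p (chr5:138165332-138165353, minus strand): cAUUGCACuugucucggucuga
mmu-miR-92a-3p (chr14:115044476-115044496, plus strand): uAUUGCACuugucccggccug
mmu-miR-92b-3p (chr3:89227126-89227147, minus strand): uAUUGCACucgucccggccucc
mmu-miR-32-5p (chr4:56895272-56895293, minus strand): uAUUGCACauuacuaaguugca
mmu-miR-363-3p (chrX:52741697-52741718, minus strand): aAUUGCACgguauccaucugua

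A site is called an 8-mer where the UTR reads GTGCAATA, a 7-mer m8 for GTGCAAT, a 7-mer A1 for TGCAATA and a 6-mer for TGCAAT, on the strand of the transcript only, and a gene is placed by the strongest site in its longest annotated 3′ UTR. Shorter letters lie within longer ones, so a 7-mer is counted only where no 8-mer overlaps it. Of 20725 genes of the files with an annotated 3′ UTR (GENCODE vM21, GRCm38), 2.28% had an 8-mer as the strongest site, 4.28% a 7-mer m8, 6.13% a 7-mer A1 and 11.9% a 6-mer. The sites below belong to genes described later, in the order of their log2 ratios from lowest to highest, with the letters that match the seed (and the A opposite base 1) in capitals. The last 2 genes, Btg2 and Klf4, carry 8-mers and were higher in the miR-25 library.
Cdk16 7-mer m8 (chrX:20699255-20699283, plus strand): atggccctcctacagtattttGTGCAATg
Dkk3 8-mer (chr7:112118173-112118201, minus strand): cagctgagtcactggtagatGTGCAATAg
Dnajc4 8-mer (chr19:6987928-6987956, minus strand): ctgcctgtccagaactacacGTGCAATAa
Ergic2 8-mer (chr6:148181604-148181632, minus strand): ttttctaataataacatgttGTGCAATAt
Insig1 7-mer m8 (chr5:28077743-28077771, plus strand): ggattgggtcttcaacttcaaGTGCAATg
Dynlt3 8-mer (chrX:9655869-9655897, minus strand): taatgtgctagatgacaagtGTGCAATAt
Mia3 8-mer (chr1:183327100-183327128, minus strand): tatccttcaaactttgaaatGTGCAATAa
Bcl2l11 8-mer (chr2:128162429-128162457, plus strand): gggtaattgccactgtacctGTGCAATAc
Btg2 8-mer (chr1:134076322-134076350, minus strand): gacaagcgttctcagtcactGTGCAATAg
Klf4 8-mer (chr4:55527366-55527394, minus strand): tatgcactgtggtttcagatGTGCAATAa

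The makeup of the culture differed between the libraries. The Müller-like share was 29.2% in the control (27.9% to 30.6%, 1321 cells) and 57.7% in the miR-25 library (56.3% to 59.1%, 2982 cells). The share of cells with fibroblast or mesenchymal markers was 46.0% in the control (44.5% to 47.5%) and 20.1% with miR-25 mimic (19.1% to 21.3%). Pericyte- or smooth muscle-like cells were 8.69% and 5.94%, astrocyte-like cells 6.15% and 5.82%, and microglia- or macrophage-like cells 2.72% and 1.41%, in the same order. Clusters that met no class's rule held 6.55% and 4.61%. The control library had the lowest Müller-like share and the highest fibroblast-like share of all 6 libraries. The other 5 held 33.2% to 57.7% and 20.1% to 32.4%, so the gap to the control was not particular to the library with miR-25 mimic alone.

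Neuron- or progenitor-like cells, a cluster led by Pcp4, were 30 cells or 0.664% of the control (0.448% to 0.946%) and 226 cells or 4.37% with miR-25 mimic (3.83% to 4.97%). The other libraries held 2.38% to 7.37%, so here too the control was the lowest. The size of this class depends on the clustering: at a finer resolution it held 3 and 76 cells, with only the 2 libraries clustered 6 and 111, and at a coarser resolution no such class was named. Over all kept cells its 20 marker genes summed to 471 CPM (counts per 1000000 UMIs) in the control and 780 CPM with miR-25 mimic. Within Müller-like cells alone the same sum was 932 and 955 CPM, of which Stmn2 gave 772 and 765 CPM. The sum over all kept cells thus also depends on the Müller-like share, and how much was not tested. The proneural factor Neurod1 and the photoreceptor factor Crx had no UMI in the control. Rod and cone markers were near 0 in both libraries, at 3.72 and 3.80 CPM summed over 12 genes.

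**Figure D1:**
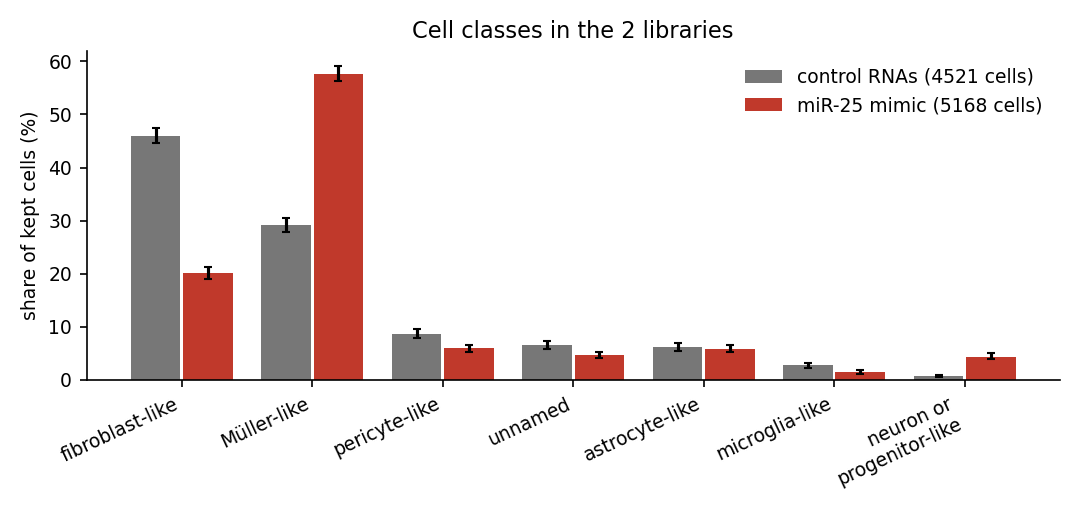
Share of kept cells in each class (vertical axis, percent) in the control library (grey) and the miR-25 library (red), 1 library each, with exact 95% intervals for counting error as bars. Müller-like cells were 29.2% and 57.7%, and fibroblast-like cells 46.0% and 20.1%.

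Gene levels were therefore compared within classes, first within Müller-like cells, where the libraries held 5390815 and 11671259 UMIs and 6419 genes reached 20 CPM in at least 1 of the 2. Ratios are log2 of miR-25 mimic over control, of CPM + 5. Their median over these genes was 0.03, and 43.5% of the genes were below 0. The Müller-like cells of these 2 libraries fell into 3 clusters: 1 led by Akr1c18 (1130 control and 2281 miR-25 cells), 1 led by Lcn2 (178 and 670) and 1 led by Rlbp1 (13 and 31). The share of the class in the Lcn2-led cluster was 13.5% in the control and 22.5% with miR-25 mimic, so values within single clusters are given for some genes. The Rlbp1-led cluster held 0.984% of the class in the control and 1.04% with miR-25 mimic, but 57.0% in the library labelled miR-124 mimic and 78.9% in that labelled triple combination, so Müller-like levels in those 2 libraries come mostly from other clusters. The median depth of a Müller-like cell was 3916 UMIs in the control and 3707.5 with miR-25 mimic, and mitochondrial genes took 7.14% and 5.88% of the summed UMIs.

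Few genes differed by 2-fold or more. In Müller-like cells 20 genes were at least 2-fold higher with miR-25 mimic (0.312% of those measured) and 3 at least 2-fold lower (0.0467%). At 1.5-fold, 94 genes were higher (1.46%) and 65 lower (1.01%). Among 6047 genes measured in fibroblast-like cells, 7 were past 2-fold upward (0.116%) and 5 downward (0.0827%), and at 1.5-fold the numbers were 62 (1.03%) and 50 (0.827%).

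Genes with a miR-25 site were lower as a group, and the more so the stronger the site. In Müller-like cells the 1023 measured genes with a 7-mer or 8-mer had a median log2 ratio of -0.07, against 0.05 for the 5300 genes with none, a difference of -0.11. The 219 genes with an 8-mer had a median of -0.22 and 77.2% of them were below 0, where 39.8% of the genes with no 7-mer or 8-mer were. The medians were -0.09 for 351 genes whose strongest site was a 7-mer m8, -0.01 for 453 with a 7-mer A1, 0.02 for 826 with only a 6-mer and 0.05 for 4474 with no site. Genes with 1 site of at least 7 letters had a median of -0.06 and the 156 genes with 2 or more had -0.14. The spread within each site class was wide: the quartiles of 8-mer genes were -0.37 and -0.03.

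Sites were common among the lower genes and scarce among the higher ones. Of the 65 genes at least 1.5-fold lower, 40 (61.5%) had a 7-mer or 8-mer, where 16.2% of all measured genes with an annotated UTR did. Of the 93 such genes that were at least 1.5-fold higher, 7 did (7.53%). Only 51 of the lower and 54 of the higher genes reached the level filter in both libraries, and 32 and 1 of these had a site. All 3 genes past 2-fold lower, Cdk16, Dkk3 and Camk2n1, carry one.

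**Figure D2:**
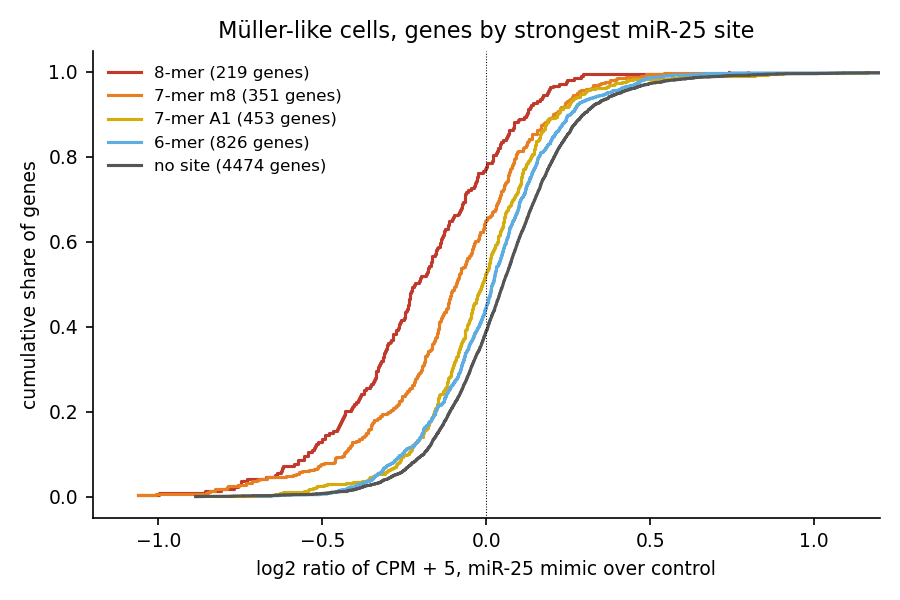
Cumulative share of genes (vertical axis) by log2 ratio of CPM + 5 in Müller-like cells, miR-25 mimic over control (horizontal axis, shown from -1.2 to 1.2), 1 line for each strongest site. The lines are ordered from 8-mer (median -0.22) on the left to no site (median 0.05) on the right, and they overlap above 0.5.

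The same difference was taken for every miRNA seed of the RefSeq table with at least 100 genes on each side. Of 1384 seeds, that of miR-25 gave the lowest difference in Müller-like cells, at -0.11. The next, of miR-701-5p, gave -0.09 over 104 genes. Most seeds gave a value a little below 0 (median -0.03, with 5% of seeds below -0.05). The seed of miR-9-5p ranked 130 and that of let-7 ranked 556, with differences of -0.05 and -0.04. Split into 3 equal bins of UTR length, the miR-25 difference was -0.15, -0.07 and -0.09 from the shortest to the longest. It was -0.14, -0.10 and -0.10 in bins of expression level from low to high, and -0.13, -0.09 and -0.14 in bins of UTR GC content.

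The size of the difference was not alike in all cell classes. For 8-mer genes against genes with no 7-mer or 8-mer it was -0.26 in Müller-like cells, -0.25 in each of the 2 larger Müller-like clusters taken alone, and -0.23 in astrocyte-like cells. It was -0.11 in pericyte-like, -0.10 in fibroblast-like and -0.07 in microglia-like cells. For any 7-mer or 8-mer the values were -0.11 in Müller-like, -0.09 in astrocyte-like, -0.06 in pericyte-like, -0.06 in microglia-like and -0.05 in fibroblast-like cells. The miR-25 seed ranked 7 of 1383 in astrocyte-like cells, 58 in pericyte-like cells, 222 of 1379 in fibroblast-like cells and 463 of 1375 in microglia-like cells, where the median seed gave -0.05. With 1 library a side the difference between classes was not tested. The fibroblast-like sums, with 10572771 and 4332022 UMIs, were about as deep as the Müller-like ones, while the microglia-like sums, with 772257 and 358586, were the shallowest.

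A second pair of libraries, which shares none with the first, also differs by the miR-25 mimic: the double combination against the let-7 antagomiR alone. There the 8-mer difference was -0.31 in Müller-like cells, -0.20 in astrocyte-like, -0.08 in microglia-like, -0.05 in fibroblast-like and 0.03 in pericyte-like cells. The difference for any 7-mer or 8-mer was -0.14 in Müller-like cells. In neuron- or progenitor-like cells, with 117 and 92 cells in this pair and too few in the control for the first, the 8-mer difference was -0.21, between those of Müller-like and astrocyte-like cells. Only part of the double combination's matrix could be read, 3014 of 5141 barcodes.

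**Figure D3:**
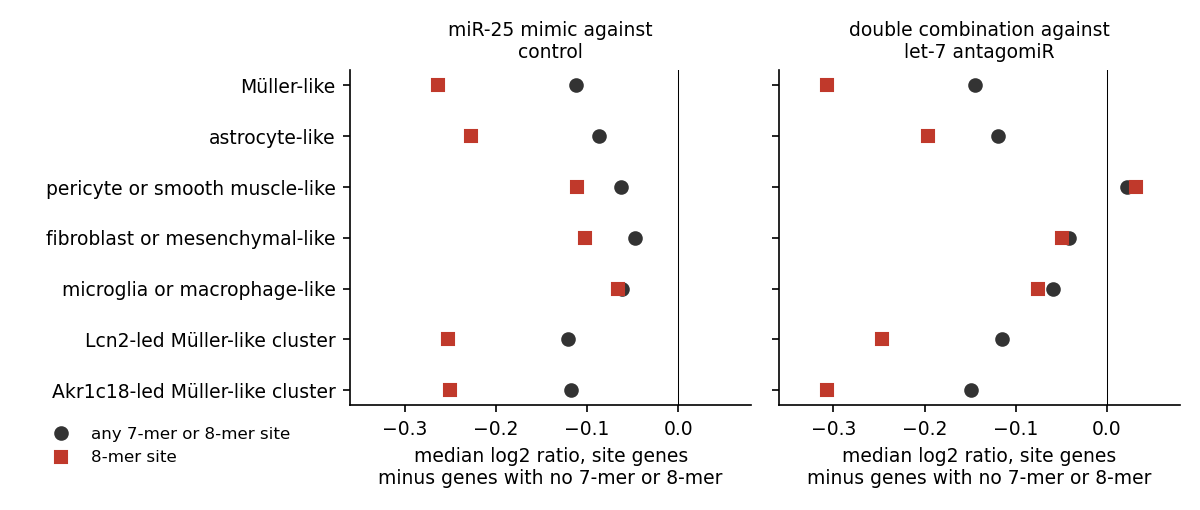
Median log2 ratio of genes with a miR-25 site minus that of genes with no 7-mer or 8-mer (horizontal axis) for each cell class and the 2 larger Müller-like clusters, in 2 pairs of libraries that share none. Black points are genes with any 7-mer or 8-mer and red squares genes with an 8-mer. In the pair against control the 8-mer values run from -0.26 in Müller-like to -0.07 in microglia-like cells.

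Dkk3, a secreted Dickkopf-family protein made by Müller glia, was the most abundant of the genes past 2-fold lower. It was at 1763 CPM in control Müller-like cells (1728 to 1799) and 842 CPM with miR-25 mimic (826 to 859), a log2 ratio of -1.06. The TGCAAT within its 8-mer starts at base 31 after the stop codon. The ratio was -1.06 in the Lcn2-led cluster and -1.11 in the Akr1c18-led cluster, and in astrocyte-like cells the level was 674 and 496 CPM. In fibroblast-like cells, where Dkk3 was scarce, it was 22.8 and 37.4 CPM, beside a sum of the 22 Müller glia markers of 210 and 293 CPM there, whose part in this level was not tested. Over all kept cells, of which more were Müller-like with miR-25 mimic, the log2 ratio of Dkk3 was -0.03. In the other Müller-like sums it was 1729 CPM with the let-7 antagomiR, 968 in the double combination, 2290 in the library labelled miR-124 mimic and 1982 in the library labelled triple combination. The libraries labelled with miR-25 mimic alone or with let-7 antagomiR were thus the 2 lowest of the 6. The triple combination, whose label also names the mimic, was above the control. Most of its Müller-like cells were in the Rlbp1-led cluster, whose part in this level was not tested.

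Genes of other functions with sites were also among the lowest. Cdk16, a kinase of the cyclin-dependent family, was at 66.6 CPM (59.9 to 73.9) in the control and 29.3 CPM (26.3 to 32.6) with miR-25 mimic, a log2 ratio of -1.06. Camk2n1, an inhibitor of the calcium/calmodulin-dependent kinase CaMKII, was at 59.0 and 26.8 CPM. Dnajc4, of the DnaJ chaperone family, was at 48.0 and 21.6 CPM, with an 8-mer whose TGCAAT starts at base 62 after the stop codon. All 3 were lower in both larger clusters, and in the double combination against let-7 antagomiR their log2 ratios were -0.70, -0.34 and -0.62. With let-7 antagomiR alone they were at 54.5, 36.5 and 42.2 CPM. In the library labelled miR-124 mimic they were at 64.3, 25.4 and 42.1 CPM. Camk2n1 was thus well below the control without the mimic too. In the library labelled triple combination Cdk16, Camk2n1 and Dnajc4 were at 74.2, 28.9 and 54.1 CPM. Cdk16 and Dnajc4 were thus above the control there, although the label names the mimic, and the cause was not tested.

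Gps1, a subunit of the COP9 signalosome, was at 68.3 and 35.7 CPM, and the palmitoyltransferase gene Zdhhc5 at 22.3 and 10.4 CPM. Dynlt3, a dynein light chain, was at 266 CPM (253 to 281) and 150 CPM (143 to 157). The intervals of Dynlt3 do not overlap between the libraries, and Zdhhc5 reached the level filter only in the control, as did Hmga2. Hmga2, a chromatin protein and known let-7 target with a 7-mer A1 for miR-25, was at 29.7 and 14.6 CPM but at 29.2 and 38.6 CPM with let-7 antagomiR and in the double combination. Insig1, which holds the sterol sensor complex in the endoplasmic reticulum, was at 161 CPM (150 to 172) and 87.4 CPM (82.1 to 92.9). Its ratio was -0.84 in Müller-like and -0.73 in astrocyte-like cells, 0.59 in fibroblast-like cells and -1.23 in the second pair. In the library labelled triple combination Gps1 was at 67.0 CPM, Zdhhc5 at 17.5, Dynlt3 at 200.1 and Insig1 at 126.2 CPM. Each was below the control and above the miR-25 library, while Hmga2, at 6.86 CPM, was below both.

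The secretory pathway was followed through 41 genes of transport between the endoplasmic reticulum and the Golgi, all measured. Ergic2, a protein of the compartment between them, was at 87.9 CPM (80.2 to 96.2) in the control and 46.3 CPM (42.4 to 50.3) with miR-25 mimic. Mia3, which loads large cargo such as collagen at exit sites, was at 70.5 CPM (63.6 to 77.9) and 39.9 CPM (36.4 to 43.7). Both have 8-mers, Ergic2 a pair of them, and both were lower in the second pair (-0.74 and -0.90), while in fibroblast-like cells their ratios were 0.06 and 0.19. In the library labelled triple combination Ergic2 was at 75.7 CPM, below the control, and Mia3 at 73.5 CPM, above it. The other 39 genes lay between -0.27 and 0.21 with none past 1.5-fold, and the median of the list was 0.03, equal to that of all genes.

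**Figure D4:**
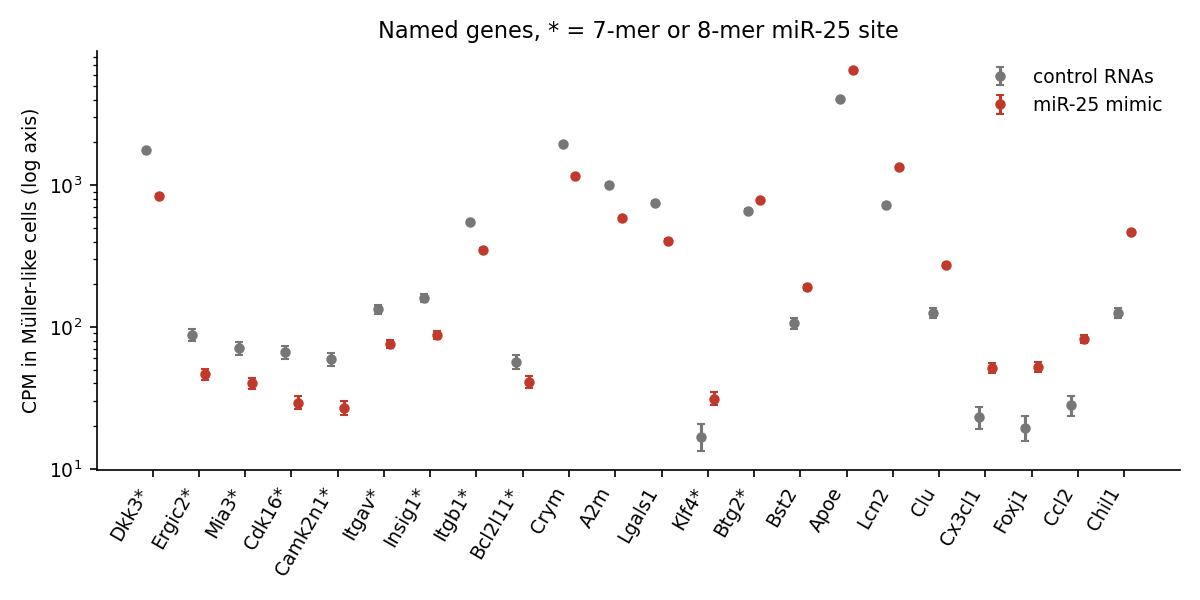
Level in CPM (vertical log axis) of named genes in Müller-like cells of the control library (grey) and the miR-25 library (red), 1 library each, with exact 95% Poisson intervals as bars where they exceed the point. Asterisks mark genes with a 7-mer or 8-mer miR-25 site. Genes from Dkk3 to Lgals1 are lower with miR-25 mimic, and those from Klf4 to Chil1 higher.

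Genes named as miR-25 family targets in the literature formed a list of 25, of which 15 were measured and 13 of those carry a 7-mer or 8-mer. Their median log2 ratio was -0.32, against 0.03 for all genes, with 11 below 0, 3 at least 1.5-fold lower and 1 at least 1.5-fold higher. Of all measured genes 43.5% were below 0, 1.01% at least 1.5-fold lower and 1.46% that far higher. Over all 25 the CPM was lower for 17 and higher for 7. After Dkk3 the lowest were Itgav, the alpha V integrin, at 134 CPM (124.2 to 143.9) and 76.3 CPM (71.4 to 81.5), and Hipk3, a kinase, at 59.4 and 36.2 CPM. Map2k4, a kinase of the JNK pathway, was at 45.6 and 30.8 CPM. Bcl2l11, which encodes the pro-apoptotic protein Bim, was at 56.9 CPM (50.8 to 63.7) and 41.0 CPM (37.4 to 44.8). In the library labelled triple combination Itgav was at 130.2 CPM, near the control, and Bcl2l11 at 99.2 CPM, above it.

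Fbxw7, the substrate receptor of a ubiquitin ligase, was at 46.2 and 35.7 CPM. Mylip and Kat2b had ratios of -0.30 and -0.28. The Lats2 kinase of the Hippo pathway, with an 8-mer, had 0.17, Tob1 0.08, and Smad7, an inhibitor of TGF-beta signalling with a 7-mer m8, 0.32. Klf4, a reprogramming factor with an 8-mer and a 7-mer A1, was at 16.7 CPM (13.4 to 20.5) in the control and 31.3 CPM (28.1 to 34.7) with miR-25 mimic. It reached the level filter only in the miR-25 library. The cell cycle inhibitor Cdkn1c, a known family target, was under the filter at 57 and 139 UMIs, a fold of 1.13 (0.822 to 1.56).

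The 15 most abundant 8-mer genes were listed whatever their ratio. Of these, 11 were lower with miR-25 mimic, 12 in the second pair and 10 in both, with medians of -0.17 and -0.32. Over all measured genes 43.5% were below 0 in the pair against control and 49.9% in the second pair. Beside Dkk3 and Dynlt3 the lowest were Pgam1, a glycolytic enzyme, at 362 and 244 CPM, Abat, the GABA transaminase, at 259 and 206 CPM, and Limch1 at 250 and 203 CPM. The RNA helicase gene Ddx3x had a log2 ratio of -0.22, the sorting receptor gene Sorl1 -0.18 and the histone gene H2afj -0.17. The transcription factor gene Zbtb20 (-0.02), Luzp1 (-0.03) and the ribosomal protein gene Rps20 (-0.05) differed little. The TGCAAT of the Rps20 site starts at base 3136 after the stop codon, in a UTR form far longer than a short ribosomal protein message needs. Whether these cells use that form was not tested.

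Btg2, an antiproliferative gene with a pair of 8-mers, was at 652 CPM (630 to 674) and 786 CPM (770 to 802), and Mdh1, Fundc2 and Pnisr had ratios of 0.10, 0.14 and 0.16. Over all 219 8-mer genes the counting interval of the fold lay wholly below 1 in 111 and wholly above 1 in 11. Over all measured genes it did so in 15.4% and 22.1%. The intervals describe counting error in 2 libraries and not the spread between cultures.

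Several of the lowest genes hold no site. Crym, a thyroid hormone binding protein of Müller glia, was at 1940 CPM (1903 to 1978) and 1160 CPM (1140 to 1180). A2m, alpha-2-macroglobulin, was at 1000.4 CPM in the control and 583 CPM with miR-25 mimic, and both genes were lower in each larger cluster and in the second pair (-1.40 and -1.08). Hopx, a small homeodomain protein, was at 85.1 and 44.4 CPM. The intermediate filament gene Nes was at 39.1 and 20.7 CPM, with a ratio of -0.84 in the Akr1c18-led cluster and -0.09 in the Lcn2-led cluster. Crym, A2m, Hopx and Nes were below the control without the mimic too. With let-7 antagomiR alone they were at 1483, 506, 47.9 and 22.6 CPM. In the library labelled miR-124 mimic they were at 1775, 590, 48.1 and 22.2 CPM.

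Some of the lowest genes were far more abundant in fibroblast-like cells, among them Lgals1, with no site, and Lox, with a 7-mer m8. Lgals1, galectin-1, was at 747 and 402 CPM in Müller-like and at 3567 and 3252 CPM in fibroblast-like cells. The lysyl oxidase gene Lox was at 44.3 and 22.3 CPM in Müller-like and 2033 and 1844 CPM in fibroblast-like cells. The 16 fibroblast markers summed to 225 CPM in control Müller-like cells and 171 CPM in those with miR-25 mimic, with Lum, Pdgfra, Dpt and Tnfrsf18 at 0 in the control, beside fibroblast-like shares of 46.0% and 20.1% of the cells. The part of these markers in the levels of Lgals1 and Lox was not tested.

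Most measured adhesion genes of the list were lower. The list was chosen with earlier results of these data known, so its counts and median describe it and are no test. Of 25 integrins and other adhesion genes, 16 were measured, with a median log2 ratio of -0.31. Of them 15 were below 0, 6 at least 1.5-fold lower and none that far higher. Of all measured genes 43.5% were below 0 and 1.01% at least 1.5-fold lower. Of the 16, 2 passed the level filter only in the control, and over all 25 the CPM was lower for 23 and higher for 2. The 6 all carry a 7-mer or 8-mer: Chl1 (209 and 119 CPM), Itgav, Nptn (133 and 77.0 CPM), Cntn1 (84.2 and 48.8 CPM), Itgb1 (550 and 347 CPM) and Alcam (479 and 308 CPM). Itgb1, the beta 1 integrin common to many dimers, was lower in fibroblast-like cells too, at 516 and 357 CPM. Members with no 7-mer or 8-mer, such as Itga6 (23.4 and 17.7 CPM), the alpha 6 integrin, Ncam1 (504 and 415 CPM) and N-cadherin, Cdh2 (1089 and 930 CPM), were between -0.33 and 0.03. In the second pair the list's median was -0.36.

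Matrix genes also had a low median, -0.36 over 14 of 23 listed, with 12 below 0 and 1, Col8a1, at least 1.5-fold lower (395 and 247 CPM). Of the 14, 3 carry a 7-mer or 8-mer. Of all measured genes 43.5% were below 0 and 1.01% at least 1.5-fold lower. Col8a1 was below the control without the mimic too, at 264 CPM with let-7 antagomiR alone and 134 CPM in the library labelled miR-124 mimic. Over the genes that were higher in Müller-like than in fibroblast-like cells of the control the list's median was -0.07, and in the second pair it was 0.14. It was 0.04 within the Lcn2-led cluster and -0.38 within the Akr1c18-led one. In fibroblast-like cells it was -0.29 over 20 genes.

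Of the 20 genes past 2-fold higher, 11 reached the level filter only in the miR-25 library, so they had to be higher there to be measured. Ccdc148 (7.05 and 22.02 CPM), 1 of these 11, has a 7-mer A1, and the other 19 of the 20 hold no 7-mer or 8-mer. Chil1, a chitinase-like secreted protein of reactive glia, had the highest ratio, 1.85, at 126 CPM (116 to 136) and 466 CPM (453 to 478). Its ratio was 1.18 in the Lcn2-led and 1.75 in the Akr1c18-led cluster, but -0.10 in the second pair. R3hdml, a secreted protein gene, was at 18.7 and 76.6 CPM (1.78), and Wisp2, a matrix-associated protein of the CCN family, at 26.9 and 98.9 CPM (1.70). Ptn, the growth factor pleiotrophin, was at 12.2 and 39.1 CPM, Thrsp, a lipogenesis gene, at 84.2 and 222 CPM, and Kcne1l, a potassium channel subunit, at 15.03 and 43.7 CPM. In the second pair the ratios were 1.57 for R3hdml, 1.12 for Wisp2 and 1.99 for Ptn, and 0.19 for both Thrsp and Kcne1l. Some were above the control without the mimic too. With let-7 antagomiR alone R3hdml was at 54.8 CPM, Wisp2 at 19.3, Ptn at 14.9, Thrsp at 201 and Kcne1l at 55.2 CPM. In the library labelled miR-124 mimic they were at 10.7, 14.4, 38.9, 578 and 33.1 CPM, in the same order. R3hdml, Ptn, Kcne1l and Ccdc148 reached the level filter only in the miR-25 library.

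Genes of motile cilia, the beating cell projections of ependyma and airway, were low in both libraries but higher with miR-25 mimic. The 26 cilia genes summed to 89.0 CPM (81.3 to 97.4) in control Müller-like cells and 205 CPM (197 to 213) with miR-25 mimic. The other sums were 88.6 CPM with let-7 antagomiR, 145 CPM (135 to 155) in the double combination, 111 CPM in the library labelled miR-124 mimic and 120 CPM in that labelled triple combination. The miR-25 library had the highest sum and the double combination the next among the 4 libraries whose Müller-like cells lay mostly in the Akr1c18-led cluster. The other 2 libraries' cells lay mostly in the Rlbp1-led one. Foxj1, the master regulator of motile cilia, was at 19.3 CPM (15.8 to 23.4) and 51.8 CPM (47.8 to 56.1), and at 14.7 and 40.5 CPM in the second pair.

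Nme5, a component of the ciliary radial spokes, was at 6.68 and 24.8 CPM, and Tppp3, a tubulin-binding protein of ciliated cells, at 48.2 and 159 CPM. Tppp3 was at 55.7 CPM with let-7 antagomiR alone and 102 CPM in the double combination. In the library labelled miR-124 mimic it was at 107 CPM, above the control without the miR-25 mimic too. The centrin gene Cetn4 was at 15.4 and 40.5 CPM, and like Foxj1 and Nme5 it reached the level filter only in the miR-25 library. Pifo and Tekt1 had no UMI in the control and 51 and 37 with miR-25 mimic. Of all 26 genes, whatever their level, 23 had a higher CPM with miR-25 mimic, 1 a lower one and 2 no UMI in either. The counting interval lay above 1 for 13. It did so in 22.1% of all genes past the level filter, and the share among genes below the filter was not taken. Only 3 of the 26 passed the level filter, 2 of them in the miR-25 library alone. The 605 Foxj1 UMIs came from 495 of 2982 cells with at most 6 in 1 cell, and the 51 of Pifo from 43 cells. Whether the same cells held the UMIs of several cilia genes was not tested.

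Interferon-response and antigen-presentation genes were higher. Of 30 listed, 22 passed the level filter, all with a ratio above 0, where 43.5% of all measured genes were below 0. Of the 22, 5 were at least 1.5-fold higher, where 1.46% of all measured genes were, and the median of the 22 was 0.40. Of these 22, 6 passed only in the miR-25 library. Counted over all 30 whatever their level, 26 had a higher CPM and 3 a lower one, among them Rsad2 (11.3 and 5.06 CPM) and Ifit2 (14.3 and 9.77 CPM). Bst2, tetherin, was at 106 CPM (97.2 to 115) and 190 CPM (182 to 198), and Isg15, a ubiquitin-like modifier, at 11.3 and 24.6 CPM. The MHC class I heavy chain H2-K1 was at 406 and 565 CPM and its light chain B2m at 2148 and 2624 CPM. In the second pair the list's median was 0.34, with Bst2 at 0.79 and Isg15 at 0.91, and in fibroblast-like cells of the first pair it was 0.20. In the library labelled triple combination Bst2 was at 50.9 and Isg15 at 5.97 CPM, both below the control, although the label names the mimic.

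Chemokine and cytokine genes had a median of 0.40 over 9 measured of 23, with 3 at least 1.5-fold higher, where 1.46% of all measured genes were. Of the 3, Cxcl1 passed the level filter only in the miR-25 library. With no level filter the median was 0.06. Ccl2, which attracts monocytes, was at 28.01 CPM (23.7 to 32.9) and 82.2 CPM (77.0 to 87.5) in Müller-like cells, and at 31.0 and 108 CPM in the second pair. In fibroblast-like cells Ccl2 was at 31.0 and 15.5 CPM. Cxcl1, a neutrophil attractant, was at 18.0 and 38.4 CPM and Cx3cl1, the ligand of the microglial receptor Cx3cr1, at 23.0 and 51.5 CPM. In the library labelled triple combination Ccl2 was at 11.1 and Cx3cl1 at 9.40 CPM, both below the control. The 15 microglia and macrophage markers summed to 48.8 and 44.6 CPM in Müller-like cells, with Csf1r, Cx3cr1 and Mrc1 at 0 in the control.

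Genes of cholesterol synthesis and transport had a median of 0.25 over 25 of 29, with 20 above 0, 2 at least 1.5-fold higher and 1, Insig1, lower. Of all genes measured in Müller-like cells 43.5% were below 0, 1.46% at least 1.5-fold higher and 1.01% that far lower. Apoe, an apolipoprotein of glia, was at 4018 CPM (3965 to 4072) and 6448 CPM (6402 to 6494), and the sterol regulator gene Srebf1 at 83.1 and 135 CPM. Apoe was above the control without the mimic too, at 5025 CPM with let-7 antagomiR alone and 7731 CPM in the library labelled miR-124 mimic. Hmgcs1, an early enzyme of the pathway, was at 175 and 224 CPM. In fibroblast-like cells the list's median was 0.37 over 26 genes, with 8 at least 1.5-fold higher, where 1.03% of all genes measured there were. In the second pair the Müller-like median was -0.21, on the other side of 0.

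Müller glia genes showed no common direction, with a median of 0.13 over 26 of 28, 5 at least 1.5-fold higher and 2 lower. The 5 were Clu, Ptgds, Hes1, Apoe and Id3, and the 2 were Dkk3 and Crym. Of all measured genes 1.46% were at least 1.5-fold higher and 1.01% that far lower. Clu, the chaperone clusterin, was at 125 CPM (116 to 135) and 273 CPM (263 to 282), and Ptgds, a prostaglandin D synthase, at 131 and 239 CPM. Both were more abundant in the Lcn2-led cluster, where the log2 ratios were 0.34 for Clu and 0.12 for Ptgds, against 1.13 and 0.97 in the Akr1c18-led cluster. Apoe had 0.06 and 0.73 in the same order. The retinoid carrier Rlbp1 was at 89.8 and 108 CPM, glutamine synthetase Glul at 100.4 and 120 CPM, Sox9 at 161 and 193 CPM and Sox2 at 142 and 143 CPM. As some of these genes define the clusters, their levels describe the class and are no finding about it.

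Reactive gliosis genes had a median of -0.05 over 18 measured, of which 2 passed 1.5-fold upward and 2 downward. Of all measured genes 1.46% and 1.01% did. Lcn2, a secreted lipocalin of reactive glia, was at 718 and 1331 CPM over the class. It leads 1 of the clusters, and its ratio was -0.06 within that cluster and 1.52 within the Akr1c18-led one. The glial filament gene Gfap was at 44.0 CPM (38.5 to 49.9) and 75.7 CPM (70.8 to 80.9).

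Notch pathway genes had a median of 0.18 over 7 of 20 measured, with 6 above 0 and 1 at least 1.5-fold higher, and over all 20 the CPM was higher for 15 and lower for 4. Neurogenic progenitor genes had a median of 0.27 over 5 of 18 measured, with 4 above 0 and none past 1.5-fold, and over all 18 the CPM was higher for 13 and lower for 2. Of all measured genes 43.5% were below 0 and 1.46% at least 1.5-fold higher. The medians of both lists were below 0 in the second pair, at -0.49 and -0.62. Hes1, an effector of Notch, was at 32.5 CPM (27.8 to 37.6) and 60.3 CPM (55.9 to 64.9), but at 43.3 and 32.0 CPM in the second pair. The receptor Notch1 was at 134 and 153 CPM and Hes6, of the same family as Hes1, at 42.3 and 52.1 CPM. The Notch ligand gene Dll1 was at 25.2 and 34.5 CPM and Sox4, with an 8-mer, at 152 and 114 CPM. Hes5, a Notch effector, had 10 and 34 UMIs, a fold of 1.57 (0.759 to 3.56), so at this depth no difference could be told. Neurod1, Neurod4 and Otx2 had no UMI in control Müller-like cells and 6, 9 and 1 in those with miR-25 mimic. The sums held 5390815 and 11671259 UMIs, so 1 UMI in the deeper one cannot be told from 0 in the control. Of the other neuron or progenitor markers Crx, Snap25 and Atoh7 had no UMI in the control. Elavl4, Snap25 and Atoh7 had none with miR-25 mimic.

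Cell cycle genes were mostly under the level filter, 25 of 30. Ccnd1, cyclin D1, was at 1479 and 1103 CPM and Ccnd2 at 1508 and 1144 CPM, ratios of -0.42 and -0.40. Both were below the control without the mimic too. With let-7 antagomiR alone Ccnd1 was at 690 and Ccnd2 at 960 CPM, and in the library labelled miR-124 mimic both were at 555 CPM. Cdkn1a, which encodes the cell cycle inhibitor p21, was at 904 and 868 CPM. The 10 cycling markers summed to 16.3 and 19.0 CPM in Müller-like cells. Mcm7, the host gene of miR-25, had 67 and 113 UMIs, a fold of 0.779 (0.571 to 1.07). Genes of the miRNA machinery had a median of 0.002 over 17 genes, with Ago2 at 47.3 and 44.3 CPM, Ago3, with a pair of 8-mers, at 46.0 and 33.8 CPM and Dicer1 at 22.6 and 28.3 CPM. The neuronal repressor gene Rest, with an 8-mer, was at 81.8 and 69.7 CPM and the splicing repressor gene Ptbp1, with no site, at 47.1 and 42.2 CPM. No gene of the lists for cell cycle, CDK inhibitors and p53 targets, apoptosis or miRNA machinery was past 1.5-fold.

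**Figure D5:**
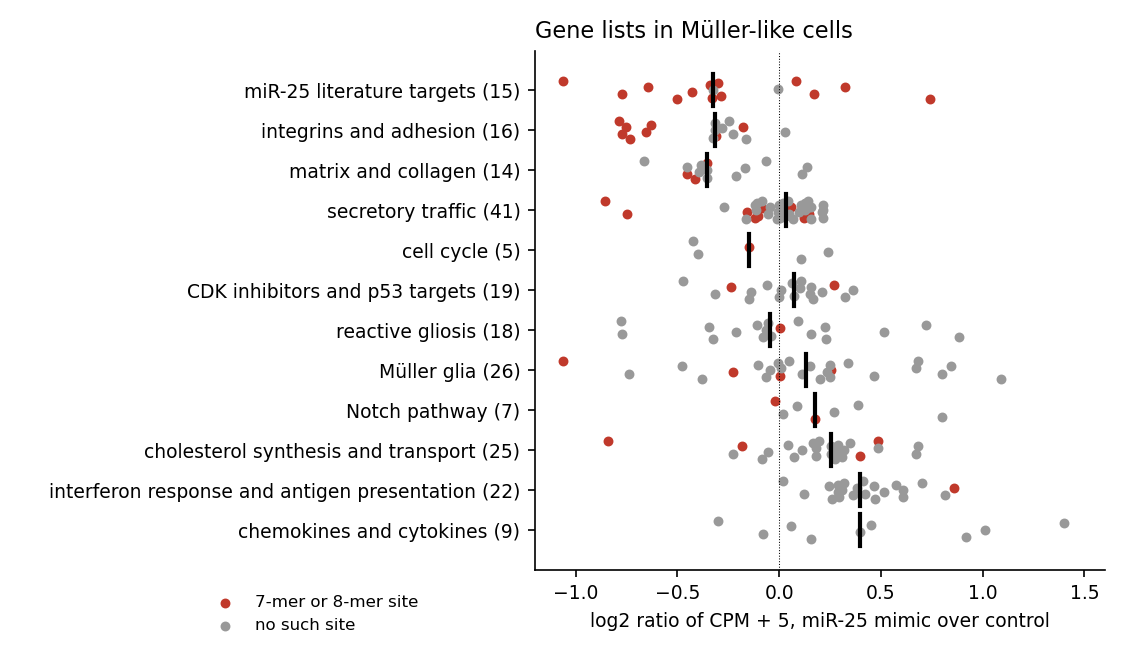
Log2 ratio of CPM + 5, miR-25 mimic over control (horizontal axis), for each measured gene of 12 lists in Müller-like cells, with the number measured in parentheses. Red points carry a 7-mer or 8-mer miR-25 site, grey points none, and black bars are list medians, which run from -0.36 for matrix genes to 0.40 for interferon and chemokine genes.

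Dkk3 belongs to a group of secreted and membrane Wnt pathway genes, of which 14 of 34 were measured, 7 on each side of 0, with a median of -0.07. Dkk3 and Wisp1 (26.2 and 14.1 CPM, past the level filter only in the control) were at least 1.5-fold lower and Wisp2 at least 1.5-fold higher. Of all measured genes 1.01% were that far lower and 1.46% that far higher. Targets and transducers of beta-catenin had a median of -0.09 over 7 genes, none past 1.5-fold. Genes of PI3K, mTOR and FoxO signalling had a median of -0.08 over 17 and those of TGF-beta and BMP signalling -0.02 over 16, where the BMP target Id3 (245 and 393 CPM) was the 1 gene past 1.5-fold. Immediate early genes, which respond to stimulation within minutes to hours, had a median of 0.10 over 14 and unfolded protein response genes 0.07 over 16, none past 1.5-fold. In the second pair the immediate early genes had a median of -0.59, with 7 at least 1.5-fold lower, where 4.2% of all genes were. Genes named as let-7 targets had a median of -0.16 over 10, of which 3 passed the filter only in the control. With no level filter the median was 0.05 and with clusters averaged equally 0.15, and over all members the CPM was higher for 13 and lower for 9. Genes named as miR-124 targets had a median of 0.04 over 24.

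Of 130 genes named by rule, 47 were at least 1.5-fold higher or lower against the control. In the second pair 26 of the 47 were past 1.5-fold in the same direction and 4 in the opposite one, where over all genes 2.36% were past it upward and 4.2% downward.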

How the data were processed

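Single-cell libraries came from the V2 system of 10x Genomics, per the labels. The deposited matrices hold raw counts, 1 whole number of UMIs for each gene and barcode, and the submitters' processing notes name Cell Ranger 2, Seurat 2 and mm10. Which cell filters came before deposit is not given in the sources used here.

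Kept cells of all 6 libraries were clustered in Scanpy 1.11.5 (2000 variable genes, 30 principal components, 15 neighbours, Leiden resolution 0.6, no integration). Clusters were named from marker lists. How far a name's markers must lead those of the next class was set after seeing the data, and the unnamed share is given. Scrublet marked 0.0885% of control and 0.232% of miR-25 cells, so it had not worked, and no doublets were removed.

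The deposited counts were summed per class and library, scaled to CPM, and compared as log2 of CPM + 5 for genes with at least 20 CPM in 1 of the 2 libraries. The rule for named genes took the 12 lowest and 12 highest ratios, the 15 most abundant 8-mer genes, in each list the 2 lowest and 2 highest members, and a fixed set. Sex-linked, haemoglobin, mitochondrial and ribosomal protein genes and those without a proper name could not enter by rank of ratio. Other list members named in the text were picked after their values were seen. Where list members are counted whatever their level, the like share over all genes of any level was not taken. The calculation of ratios and intervals was tried on simulated counts that held counting error only. It cannot show the spread between cells or cultures. Of 27998 genes, 20725 had a GENCODE vM21 3′ UTR. The gene lists, the members and the rules were chosen with earlier results of these data known. Counts and medians of lists, also beside those of all genes, are therefore descriptions. The fold intervals are exact conditional binomial, those of CPM Poisson and those of shares Clopper-Pearson. Some genes and sequences under the rule are not reported here.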

Additional observations from a re-analysis of the deposited data

Results flagged for a closer look

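In Müller-like cells 4 named genes were past 1.5-fold in opposite directions in the pair against control and in the double combination against let-7 antagomiR, and the difference between the pairs was not tested. Gfap had log2 ratios of 0.72 and -1.09, and its level in the control was 1346 CPM in astrocyte-like and 44.0 CPM in Müller-like cells. The part of astrocyte RNA in it was not tested. Klf4, which has an 8-mer, had 0.74 and -1.32, with 16.7 CPM in the control and 52.4 CPM with let-7 antagomiR, the highest of these 4 libraries. Lox had -0.85 and 0.92, and Wisp1, a matrix-associated protein of the CCN family, had -0.71 and 0.60. Lox was at 44.3 CPM in the control and 23.1 CPM with let-7 antagomiR, and Wisp1 at 26.2 and 17.5 CPM, so the starting levels of the 2 pairs differ.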

How the results depend on the processing

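No paired analysis was possible because each treatment has 1 library. The miR-25 seed ranked 1 under all 13 alternatives tried for it, and no site difference changed sign. The difference for any site in Müller-like cells was -0.055 with no level filter, -0.069 over all kept cells and -0.176 with only 7-mer m8 and 8-mer sites. That for 8-mers was -0.172 with no filter. The difference in the second pair was -0.075 with no filter and -0.095 over all kept cells. In astrocyte-like cells it was -0.044 with no filter and -0.139 with only 7-mer m8 and 8-mer sites, and in fibroblast-like cells -0.031 with no filter. In microglia-like cells it was -0.028 at 50 CPM, -0.039 without the 4% highest Scrublet scores and -0.028 over genes higher in Müller-like cells. Genes at least 2-fold higher numbered 11 at 50 CPM and 108 over all kept cells, and those lower 6 with a pseudocount of 1 and 59 over all kept cells. The Müller-like share was 32.1 points above the control at resolution 0.3 and 24.6 at 1.0, and the fibroblast-like share was -21.1 points at 1.0. Over all kept cells 30 of 125 named genes had the other sign, 5 of them past 1.5-fold in Müller-like cells: A2m (0.32), Chl1 (0.28), Crym (0.42), Syt1 (0.42) and Id3 (-0.080). The causes were not tested. The scaling without mitochondrial and ribosomal protein UMIs and the restriction to genes higher in Müller-like cells were added after seeing the data.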
